A study of Mus musculus with 6 samples.

Results

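Connexins are the proteins that build gap junctions, and 6 connexin genes (Gja1, Gja4, Gja5, Gjb2, Gjb5 and Gjc1) were compared between 2 sorted cell populations of the newborn mouse bladder. Every probe set whose platform annotation gives 1 gene symbol equal to one of these names was taken, which gave 12 of the 45037 probe sets that are not controls, and 6 of the 18193 genes with a probe set. The annotation paired Gja1 with 6 probe sets, Gjc1 with 2 and each of the other genes with 1. RNA came from male FVB/N mice at postnatal day 2 that carried a pair of transgenes in every group, SMGA/EGFP (EGFP driven by an SMGA promoter) and SMAA/EYFP (EYFP driven by an SMAA promoter). The labels do not spell out these names, which are usual for smooth muscle gamma actin (the gene Actg2) and smooth muscle alpha actin (the gene Acta2). Dissected bladders were digested with enzymes and sorted by fluorescence. EGFP+EYFP- cells (3 arrays) were set against EGFP+EYFP+ cells (3 arrays), and the labels place both in the detrusor muscle, the contractile layer of the bladder wall. The populations are defined by reporter fluorescence alone, the samples were not pooled, and the labels do not tie each array to an animal of its own. P-values therefore rest on the spread between arrays, which could be purely technical.

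Connexin molecules assemble into a ring in one cell membrane, which docks with a ring in the neighbouring cell to make a channel for ions and small metabolites. In smooth muscle such channels let electrical activity pass from cell to cell. Connexin 43 (Gja1) and connexin 45 (Gjc1) are the forms best known from bladder muscle and its interstitial cells. Connexin 37 (Gja4) and connexin 40 (Gja5) are known from arterial endothelium, and connexin 26 (Gjb2) and connexin 31.1 (Gjb5) from epithelia such as skin.

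Each array gave 1 signal intensity, in arbitrary units, for every probe set, and the number of arrays limits the precision. Differences are EGFP+EYFP- minus EGFP+EYFP+ in log2(signal + 25.042), a scale that understates changes of dim genes. Median signals ranged from 153 to 199 in EGFP+EYFP- and from 147 to 199.8 in EGFP+EYFP+ arrays. The ratio of the 3' to the 5' Actb control, a reading of RNA quality, was 3.23 to 5.97 in EGFP+EYFP- and 2.78 to 8.02 in EGFP+EYFP+ arrays, so the groups overlapped. For the Gapdh control the ratio was larger, 11.8 to 20.6 in EGFP+EYFP- and 17.2 to 23.9 in EGFP+EYFP+ arrays. These groups overlapped too, but leaned higher in EGFP+EYFP+. The detrusor label was read against 12 smooth muscle markers, of which 9 were higher in EGFP+EYFP-, 0 were lower and 3 did not pass an adjusted p of 0.05 in limma. Of all genes tested, 4.38% were called higher and 1.98% lower. The sum of the log2 values of the 12 markers was 170.9 to 174 in EGFP+EYFP- and 135 to 148 in EGFP+EYFP+ arrays. The 9 include Actg2 and the 3 include Acta2, the presumed genes of the reporter promoters, so count and sum are not independent of the sort. Actg2, on that reading the gene of the EGFP promoter, averaged 60131 ± 8405 in EGFP+EYFP- and 10595 ± 3281 in EGFP+EYFP+ cells (SD, n = 3 each). Acta2, on that reading the gene of the EYFP promoter, had a difference of 0.07 on its brightest probe set (limma adjusted p = 0.904) and of 4.31 on the next brightest (limma adjusted p over probe sets = 0.000486). None of its 3 probe sets had the higher mean in the cells sorted for EYFP.

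No connexin gene passed the threshold between the populations. Of the 6 genes, 4 had a mean above the filter on dim genes (6.82 on the log2 scale, a signal of about 87.6) and were tested with limma, and 0 of the 4 had an adjusted p under 0.05, against 6.37% of all 13464 genes tested. At an unadjusted p under 0.05 the count was 2 (Gja4 and Gjb5), where 17.6% of all genes tested stood there. In a separate limma fit over 26416 probe sets, 0 of the 10 connexin probe sets above the filter passed, 2 had an unadjusted p under 0.05, and 3.44% of all probe sets passed. Gja4 was higher on every EGFP+EYFP- array and Gjb5 lower on every one. Groups that did not overlap were seen upward for 11.9% and downward for 10.5% of all genes tested.

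**Figure D1:**
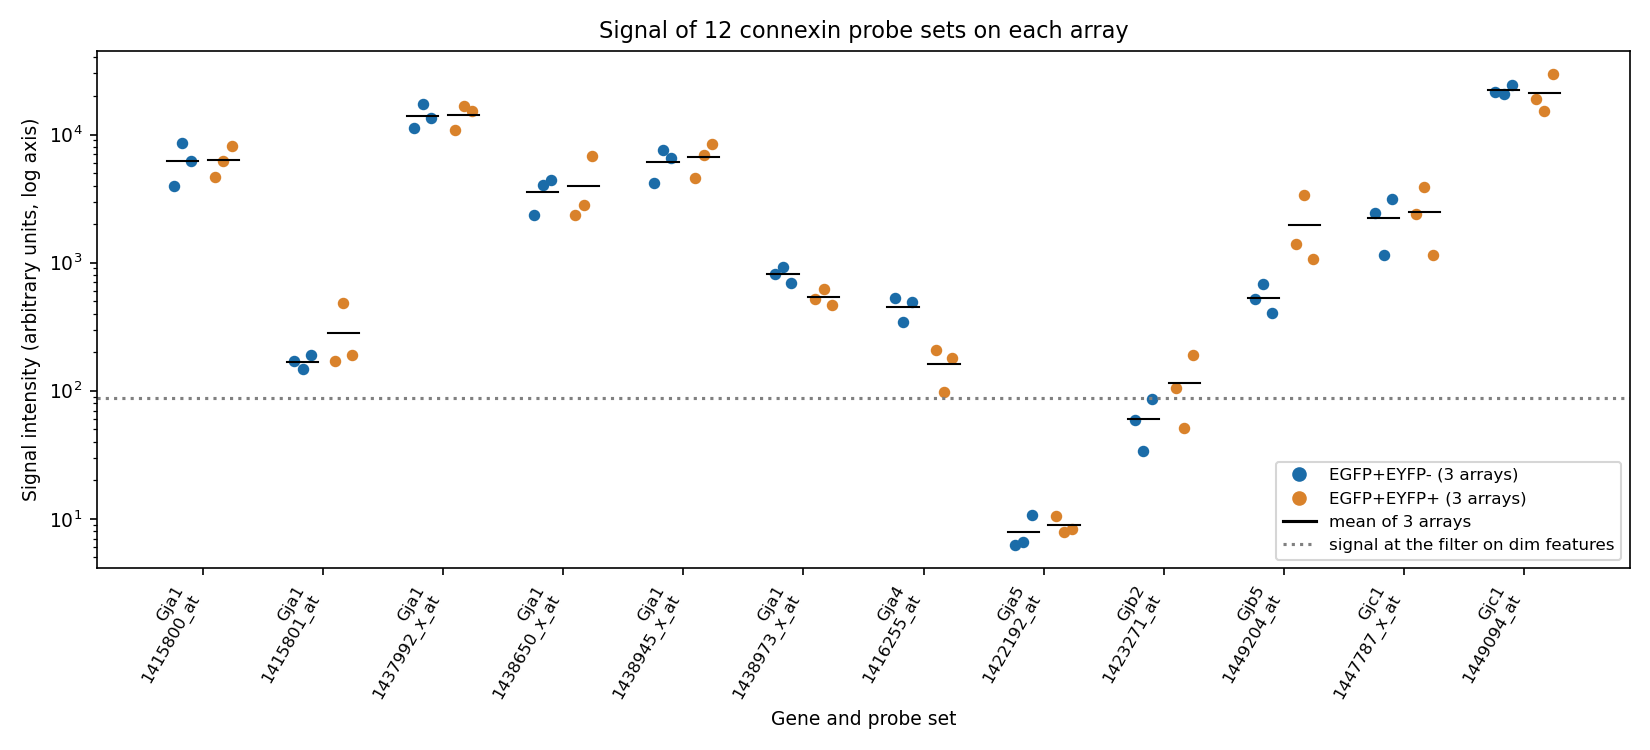
Signal intensity (arbitrary units, log axis) of 12 connexin probe sets, with 1 point per array, EGFP+EYFP- left of EGFP+EYFP+ and a bar at each mean of 3 arrays. The groups lie apart for Gja4, for Gjb5 and for 1 of the 6 Gja1 probe sets (1438973_x_at), and overlap elsewhere. The dotted line is the signal at the filter on dim features.

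Gja1, which encodes connexin 43, differed between the populations by less than the spread of the arrays. On its brightest probe set (1437992_x_at) the signal was 11148, 17258 and 13389 in EGFP+EYFP- arrays 1 to 3, against 10879.5, 16776 and 15272 in EGFP+EYFP+ arrays 1 to 3. The values of the groups interleaved. The means were 13932 ± 3091 in EGFP+EYFP- and 14309 ± 3064 in EGFP+EYFP+ cells (SD, n = 3 each). The difference was -0.04 (SE 0.23, limma adjusted p = 0.965), with a 95% interval from -0.54 to 0.46, or 0.688-fold to 1.38-fold. The values of 3 arrays a group are compatible with any difference inside that interval.

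The promoter of Gja1 is shown because a motif of AP-1, the Jun and Fos dimer reported to act on it, lies close to its start site. The window holds the 250 bases before the RefSeq start of transcription on the plus strand of GRCm38.p6, chr10:56377050-56377299, with motif letters in capitals.
Gja1: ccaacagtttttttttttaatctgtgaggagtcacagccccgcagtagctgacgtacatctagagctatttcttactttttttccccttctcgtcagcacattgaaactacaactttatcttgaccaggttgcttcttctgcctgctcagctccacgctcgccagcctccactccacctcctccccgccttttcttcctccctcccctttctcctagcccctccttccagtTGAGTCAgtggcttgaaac
The capitals are TGAGTCA, 19 to 13 bases before the start site. This is a match to TGANTCA, searched on both strands and overlapping no other motif searched here, and 6.75% of 32851 mouse promoter windows of the same length hold one. Jun averaged 43891 ± 7523 in EGFP+EYFP- and 51985 ± 9737 in EGFP+EYFP+ cells, and Fos averaged 52152 ± 8045 in EGFP+EYFP- and 55374 ± 12805 in EGFP+EYFP+ cells (SD, n = 3 each). Neither factor passed (limma adjusted p = 0.580 and 0.913). Junb, a further AP-1 subunit, had a difference of -1.46 (SE 0.51, limma adjusted p = 0.152, from 0.0288 to 0.450 over its alternatives) with overlapping groups.

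The 6 Gja1 probe sets did not all behave alike. On 4 of them, 1437992_x_at among them, array 1 was the lowest of each group, and their log2 values moved together across the 6 arrays (Pearson's r 0.546 to 0.964 over 6 pairs of probe sets). The 4 were grouped by that order on the same arrays, which in itself favours a high r. The differences of these 4 lay between -0.12 and -0.04. The other 2, the dimmest of the 6, were unlike these 4 and unlike each other, with r of -0.27 to 0.40 over the 9 remaining pairs. Probe set 1438973_x_at read 818, 933 and 693 in EGFP+EYFP- arrays and 516, 626 and 463 in EGFP+EYFP+ arrays, so that every EGFP+EYFP- value lay above every EGFP+EYFP+ value. Its difference was 0.58 (SE 0.33, limma adjusted p over probe sets = 0.527). Probe set 1415801_at read 171, 147 and 189 in EGFP+EYFP- arrays and 171, 482 and 189 in EGFP+EYFP+ arrays, and EGFP+EYFP+ array 2 stood above all other values. Its difference was -0.52 (SE 0.47, limma adjusted p over probe sets = 0.747). The suffix _x_, which marks probes that can match other transcripts, is carried by 4 of the 6, with 1437992_x_at and 1438973_x_at among them, and the place of each probe set along the transcript was not used here.

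Gjc1, which encodes connexin 45, did not differ beyond its spread either. Its brighter probe set (1449094_at) read 21667, 20749.9 and 24477 in EGFP+EYFP- arrays, against 18773, 15354 and 29539 in EGFP+EYFP+ arrays. The EGFP+EYFP- values all lay inside the range of the EGFP+EYFP+ values, which was the wider one. The means were 22298 ± 1942 in EGFP+EYFP- and 21222 ± 7403 in EGFP+EYFP+ cells (SD, n = 3 each). The difference was 0.12 (SE 0.23, limma adjusted p = 0.858), with a 95% interval of 0.767-fold to 1.55-fold. The second probe set (1447787_x_at) read 2423, 1148 and 3141 in EGFP+EYFP- arrays and 2395, 3893 and 1145 in EGFP+EYFP+ arrays, with a difference of -0.10 (SE 0.50, limma adjusted p over probe sets = 0.971). The probe sets did not follow each other, since EGFP+EYFP+ array 3 was the highest of its group on the brighter one and the lowest on the other.

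**Figure D2:**
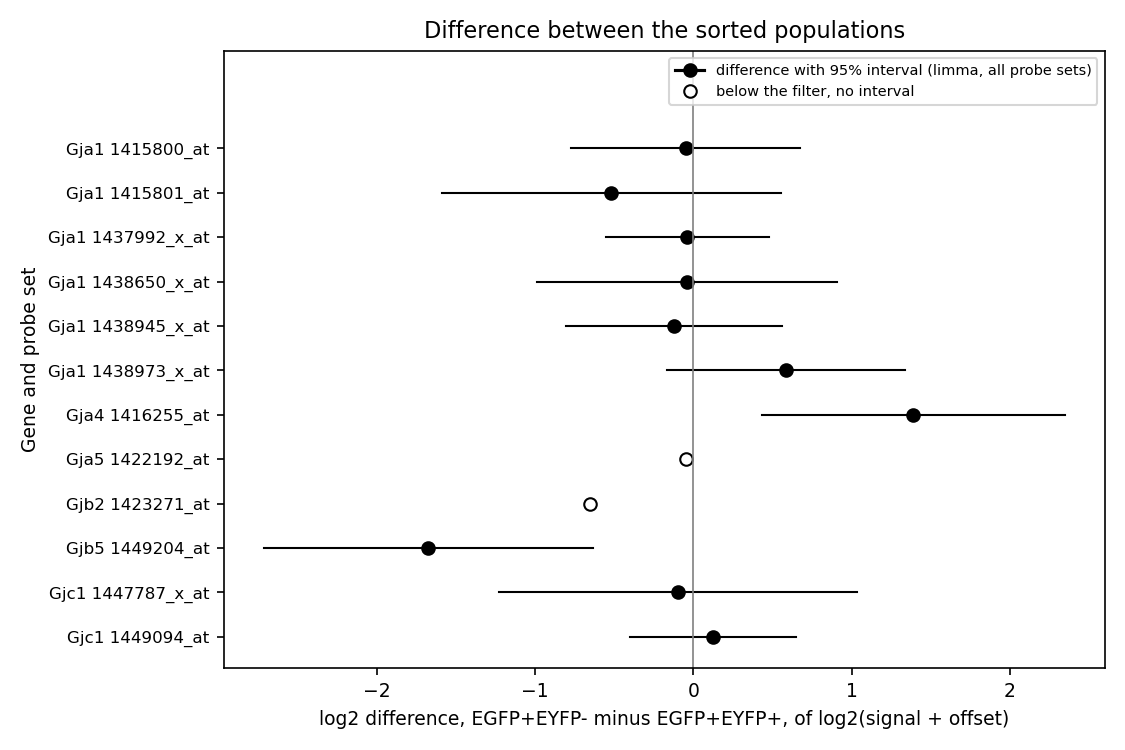
Difference in log2(signal + 25.042), EGFP+EYFP- minus EGFP+EYFP+, for each connexin probe set, with the 95% interval of the limma fit over all probe sets (3 arrays a group). The unadjusted intervals of Gja4 (0.43 to 2.35) and Gjb5 (-2.71 to -0.64) lie off 0, and those of the other 8 tested probe sets cross it. Open circles are the probe sets below the filter.

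Gja4, the endothelial connexin 37, read higher on every EGFP+EYFP- array, without passing the test. Its single probe set read 526, 343 and 494 in EGFP+EYFP- arrays, against 207, 98.1 and 179.7 in EGFP+EYFP+ arrays. All 3 EGFP+EYFP- values lay above all 3 EGFP+EYFP+ values, and EGFP+EYFP+ array 2 was close to the level of the filter. The means were 454 ± 97.8 in EGFP+EYFP- and 162 ± 56.7 in EGFP+EYFP+ cells (SD, n = 3 each), a ratio of 2.81. The difference was 1.39 (SE 0.41, unadjusted 95% interval 0.48 to 2.30), which did not pass over all genes (limma adjusted p = 0.0835), and 5.74% of the genes tested had a larger positive difference. Gja5, the arterial connexin 40, read 6.27, 6.56 and 10.7 in EGFP+EYFP- arrays and 10.5, 7.87 and 8.35 in EGFP+EYFP+ arrays, below the filter on every array. No difference in Gja5 was detectable at this signal (p = 0.6 in an exact two-sided permutation of log2 values, which cannot go below 0.1 with these group sizes).

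Markers of endothelium were read beside Gja4. Of 14 endothelial genes tested, 6 were higher in EGFP+EYFP- arrays, 0 were lower and 8 did not pass, where 4.38% of all genes tested were called higher and 1.98% lower. The median difference of the list was 1.68, against -0.02 over all genes tested. Their summed log2 values were 148.8 to 149.5 in EGFP+EYFP- and 122.6 to 134.7 in EGFP+EYFP+ arrays (exact two-sided permutation p = 0.1, the smallest possible). Array 2 of each group was the lowest for Gja4 and the highest for this sum, though the EGFP+EYFP- sums were nearly equal. This order rests on 3 arrays a group and was not tested. Of the 3 brightest, Esam, an adhesion protein of endothelial junctions, had a difference of 1.70 (limma adjusted p = 0.0125), while Eng (-0.25) and Ptprb (0.28) did not pass. The lowest single reading of the list was 20.8, below the signal at the filter (about 87.6), and such a reading does not show that a gene was present. Of 7 tested markers of arterial endothelium other than the connexins, 1 was higher (Sox17, which is also in the endothelial list) and 6 did not pass, with summed log2 values of 77.5 to 80.3 in EGFP+EYFP- and 70.6 to 78.2 in EGFP+EYFP+ arrays over the 8 genes measured. The part of these cells in the Gja4 values was not tested, and in such bulk samples fewer cells of a type and less RNA per cell cannot be told apart.

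Gjb5, the epithelial connexin 31.1, stood the other way round. Its probe set read 522, 678 and 401 in EGFP+EYFP- arrays, against 1393, 3398 and 1075 in EGFP+EYFP+ arrays. All 3 EGFP+EYFP- values lay below all 3 EGFP+EYFP+ values, and EGFP+EYFP+ array 2 stood far above its companions. The means were 534 ± 139 in EGFP+EYFP- and 1955 ± 1259 in EGFP+EYFP+ cells (SD, n = 3 each). The difference was -1.68 (SE 0.45, unadjusted 95% interval -2.67 to -0.68), and the adjusted p of 0.0551 in limma missed the threshold narrowly. Of the genes tested, 1.30% had a larger negative difference. In this fit over genes Gjb5 passed under 6 of the 17 alternatives, with limma adjusted p from 0.0193 to 0.188 over all of them. In the fit over probe sets the same values had a limma adjusted p of 0.102 and passed under 1 of 15 alternatives. The call thus depended on the processing. Without EGFP+EYFP+ array 2, the array with the highest value, the difference was -1.19 (limma adjusted p = 0.133).

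Gjb2, connexin 26, had too little signal for the test. It read 59.05, 33.7 and 86.2 in EGFP+EYFP- arrays, against 105, 50.8 and 191 in EGFP+EYFP+ arrays, and the groups overlapped. The difference in means was -0.65 on the log2 scale (p = 0.3 in the same exact permutation test).

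Epithelial markers were higher in the EGFP+EYFP- arrays, the side on which Gjb5 and Gjb2 had their lower means. Of 15 urothelial genes tested, 9 were higher in EGFP+EYFP- arrays, 0 were lower and 6 did not pass. Of all genes tested, 4.38% were called higher and 1.98% lower. The median difference of the urothelial list was 2.11, against -0.02 over all genes tested. Its summed log2 values over 16 genes were 158 to 168 in EGFP+EYFP- and 127 to 138 in EGFP+EYFP+ arrays (exact two-sided permutation p = 0.1, the smallest possible). Perp, a desmosomal protein, averaged 7566 ± 679 in EGFP+EYFP- and 603 ± 102 in EGFP+EYFP+ cells, and Krt8, a keratin of simple epithelium, averaged 6362 ± 1336 in EGFP+EYFP- and 1090.1 ± 593 in EGFP+EYFP+ cells (SD, n = 3 each). Krt18, the partner of Krt8, had a difference of 1.73 (limma adjusted p = 0.0315). Of 5 tested markers of keratinocyte-type epithelium, 2 were higher (Perp and Krt15, both also in the urothelial list), 0 were lower and 3 did not pass. Krt15 came through the filter by its EGFP+EYFP- arrays alone, with log2 means of 8.65 in EGFP+EYFP- and 5.29 in EGFP+EYFP+. The summed log2 values over 7 genes were 55.9 to 60.1 in EGFP+EYFP- and 46.2 to 51.9 in EGFP+EYFP+ arrays. The lowest single reading of a urothelial marker was 7.88, of Krt15 in an EGFP+EYFP+ array, below the signal at the filter (about 87.6). Such a reading does not show that the gene was present. Within EGFP+EYFP+ cells array 2 was the highest of the 3 for Gjb5 and for the sums of both epithelial lists. The same array was the highest of its group for the sums of smooth muscle, endothelium, arterial endothelium, leukocytes and mesothelium. It was not the highest for Schwann cells, pericytes, interstitial cells or fibroblasts. This order rests on that array alone, and the part of epithelial cells in the Gjb5 values was not tested.

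**Figure D3:**
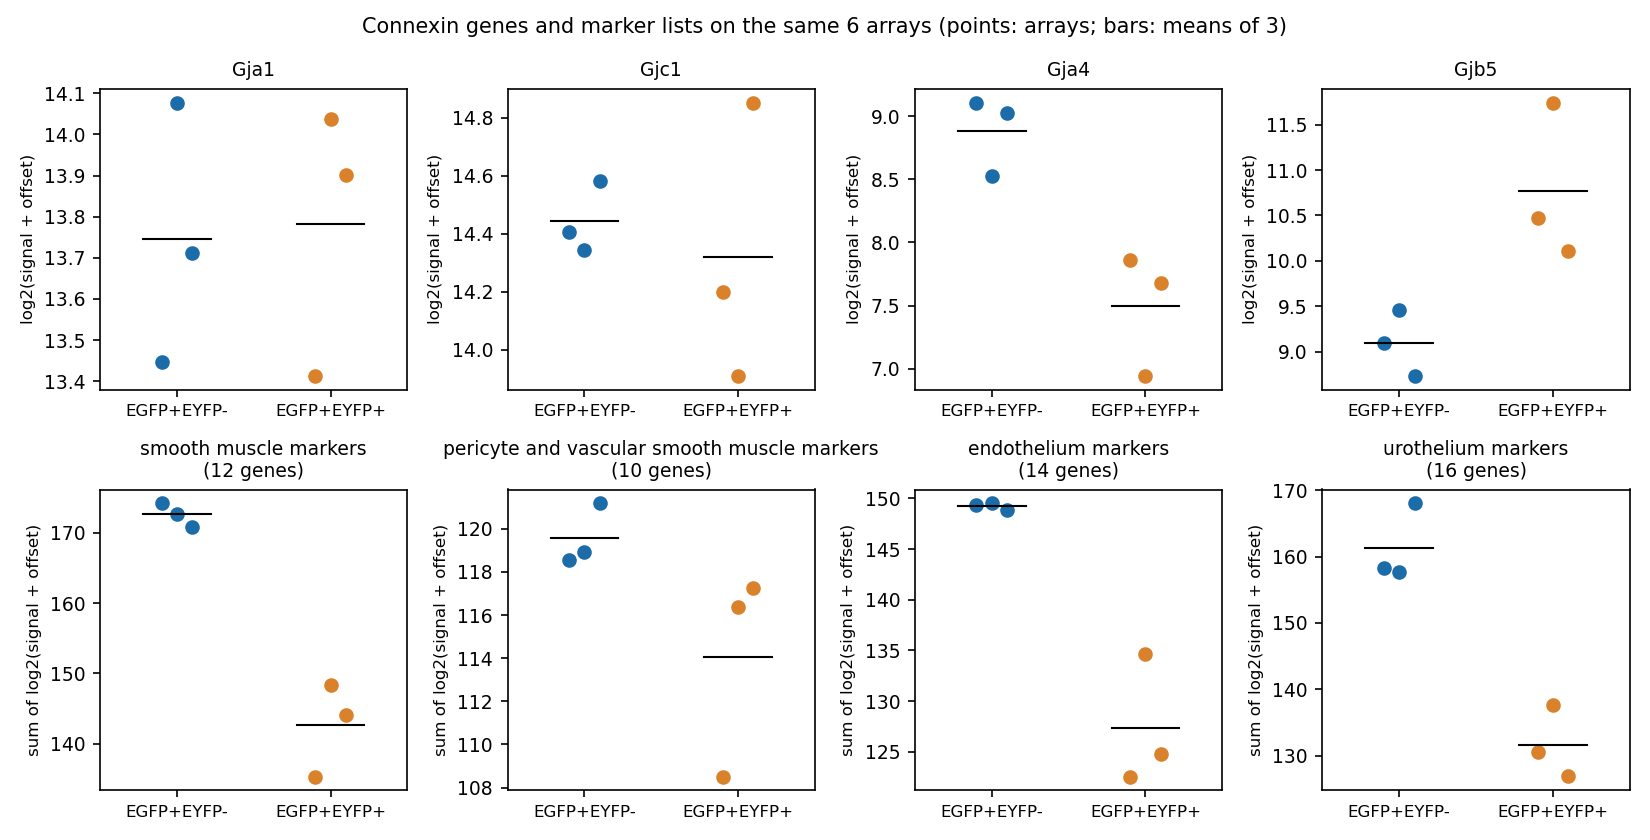
Log2(signal + 25.042) of 4 connexin genes (upper row) and sums of log2 values over 4 marker lists (lower row) on the same arrays, EGFP+EYFP- left of EGFP+EYFP+, with 1 point per array and a bar at each mean of 3. The marker sums of smooth muscle, pericytes, endothelium and urothelium all lie higher in EGFP+EYFP-, as does Gja4, while Gjb5 lies lower and Gja1 and Gjc1 overlap. Of the lists not drawn, the sums of interstitial cells lay lower in EGFP+EYFP- and those of fibroblasts overlapped. The vertical axes differ between panels and do not start at 0.

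Gja4 and Gjb5 are close neighbours on chromosome 4. Their RefSeq start sites lie 44.1 kb apart on the same strand. Their promoters are shown because these neighbours had differences of opposite sign. Each window holds 250 bases before the start site on the minus strand of GRCm38.p6, chr4:127314040-127314289 for Gja4 and chr4:127358165-127358414 for Gjb5, printed 5' to 3' along the gene with motif letters in capitals.
Gja4: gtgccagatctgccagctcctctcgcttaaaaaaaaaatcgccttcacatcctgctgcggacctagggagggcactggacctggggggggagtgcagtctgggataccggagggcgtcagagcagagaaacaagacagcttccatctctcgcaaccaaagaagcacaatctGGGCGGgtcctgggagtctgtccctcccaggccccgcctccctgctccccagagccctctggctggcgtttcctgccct
Gjb5: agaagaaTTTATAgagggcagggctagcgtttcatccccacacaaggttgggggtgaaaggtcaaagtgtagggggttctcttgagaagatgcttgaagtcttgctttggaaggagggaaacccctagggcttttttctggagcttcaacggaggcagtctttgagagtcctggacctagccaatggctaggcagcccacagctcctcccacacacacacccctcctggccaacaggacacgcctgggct
In Gja4 the capitals mark a GC box (GGGCGG, found in 32.7% of the windows of all genes), 79 to 74 bases before the start site. In Gjb5 they mark TATAAA on the opposite strand (found in 12.4%), 243 to 238 bases before it. The motifs searched on both strands were TGANTCA for AP-1, GGGCGG for the GC box, TATAAA for the TATA box, GGTGTGA for T-box factors (found in 3.33%) and the CArG box bound by serum response factor (found in 1.47%), and no matches overlapped in these windows. The 5 connexin windows in the RefSeq table held no GGTGTGA and no CArG box, which says only that these letters are not in these 250 bases. The GC content was 50% for Gja1, 61.2% for Gja4 and 54.4% for Gjb5.

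Among the other connexin and pannexin genes, 11 of 17 had a probe set and 3 were tested, of which 0 passed in limma and 2 (Gjb6 and Gjd2) had an unadjusted p under 0.05. Both came through the filter by their EGFP+EYFP- arrays alone, so this count supports nothing about the list. Gjb6, connexin 30, which lies 28.9 kb from Gjb2 on chromosome 14, read 185, 347 and 118 in EGFP+EYFP- arrays and 54.0, 23.3 and 41.8 in EGFP+EYFP+ arrays. Its groups did not overlap, and its difference was 1.82 (SE 0.48, limma adjusted p = 0.0551), opposite in sign to that of Gjb2. Its EGFP+EYFP+ mean of 5.99 on the log2 scale was below the filter, so the size of the difference rests on the offset. Gjb6 passed with no variance trend (adjusted p = 0.0461) and with genes averaged over probe sets (adjusted p = 0.0449), out of alternatives that ran from 0.0449 to 0.133. Gjd2, connexin 36, had means of 7.71 in EGFP+EYFP- and 6.17 in EGFP+EYFP+ on the log2 scale, the second below the filter. Its difference was 1.54 (SE 0.55, limma adjusted p = 0.156), and it passed without EGFP+EYFP- array 1 (2.09, adjusted p = 0.0494, against up to 0.333 under the other alternatives). Panx1, a pannexin, which forms channels in single membranes, had 0.35 (SE 0.28, limma adjusted p = 0.622).

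Of 26 partners, scaffolds and turnover enzymes of connexins tested, 3 were higher in EGFP+EYFP-, 0 were lower and 23 did not pass, where 4.38% of all genes tested were called higher and 1.98% lower. The median difference was 0.22, against -0.02 over all genes tested. Cav1 and Cav2 encode caveolins, coat proteins of membrane invaginations, and caveolin 1 is reported to bind connexin 43. Cav1 averaged 63368 ± 6972 in EGFP+EYFP- and 34918 ± 4605 in EGFP+EYFP+ cells (SD, n = 3 each), a difference of 0.86 (SE 0.14, limma adjusted p = 0.00551). Cav2 read 5925, 10967 and 9179.9 in EGFP+EYFP- arrays and 1474, 3424 and 2823 in EGFP+EYFP+ arrays, a difference of 1.78 (SE 0.35, limma adjusted p = 0.0127). Cdh5, the cadherin of endothelial junctions and also a member of the endothelial list, had a difference of 2.41 (SE 0.33, limma adjusted p = 0.0019). The call of Cav1 was lost with median centring (adjusted p = 0.0722) and with no variance trend (adjusted p = 0.0946), and elsewhere held down to 0.00117. That of Cav2 was lost without EGFP+EYFP- array 2 (adjusted p = 0.0718) or array 3 (adjusted p = 0.0668), and elsewhere held down to 0.00172. Tjp1, the scaffold protein ZO-1 that binds the tail of connexin 43, had 0.38 (SE 0.21, limma adjusted p = 0.406) with overlapping groups.

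Of 18 transcription factors reported to act on connexin promoters, 0 were higher in EGFP+EYFP-, 3 were lower and 15 did not pass, against 4.38% higher and 1.98% lower among all genes tested. The median difference was -0.06, close to the -0.02 of all genes tested. All 3 are T-box factors. Tbx2 and Tbx3 are known in the heart as repressors of Gja1 and Gja5, and Tbx5 as an activator of Gja5. Tbx3 read 1187, 1802 and 2919 in EGFP+EYFP- arrays, against 7734, 8727 and 11180.5 in EGFP+EYFP+ arrays, a difference of -2.29 (SE 0.33, limma adjusted p = 0.00245). Tbx2 averaged 1387 ± 217 in EGFP+EYFP- and 4102 ± 1552 in EGFP+EYFP+ cells (SD, n = 3 each), a difference of -1.49 (SE 0.32, limma adjusted p = 0.0187). Tbx5 averaged 34.9 ± 10.5 in EGFP+EYFP- and 259 ± 157 in EGFP+EYFP+ cells (SD, n = 3 each), a difference of -2.13 (SE 0.48, limma adjusted p = 0.0264). It came through the filter by its EGFP+EYFP+ arrays alone, with log2 means of 5.89 in EGFP+EYFP- and 8.02 in EGFP+EYFP+. Its call therefore supports nothing about the list, and the size of its difference rests on the offset. With the mean of its probe sets Tbx3 missed the threshold (-1.26, adjusted p = 0.0976) and passed under the other alternatives. The calls of Tbx2 and Tbx5 were lost when each EGFP+EYFP- array in turn was left out (adjusted p from 0.0517 to 0.0716 for Tbx2 and from 0.0582 to 0.109 for Tbx5). Tbx18, a further T-box factor, had a difference of 0.76 (limma adjusted p = 0.464). On the same arrays Gja1 overlapped between the groups and Gja5 was below the filter.

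**Figure D4:**
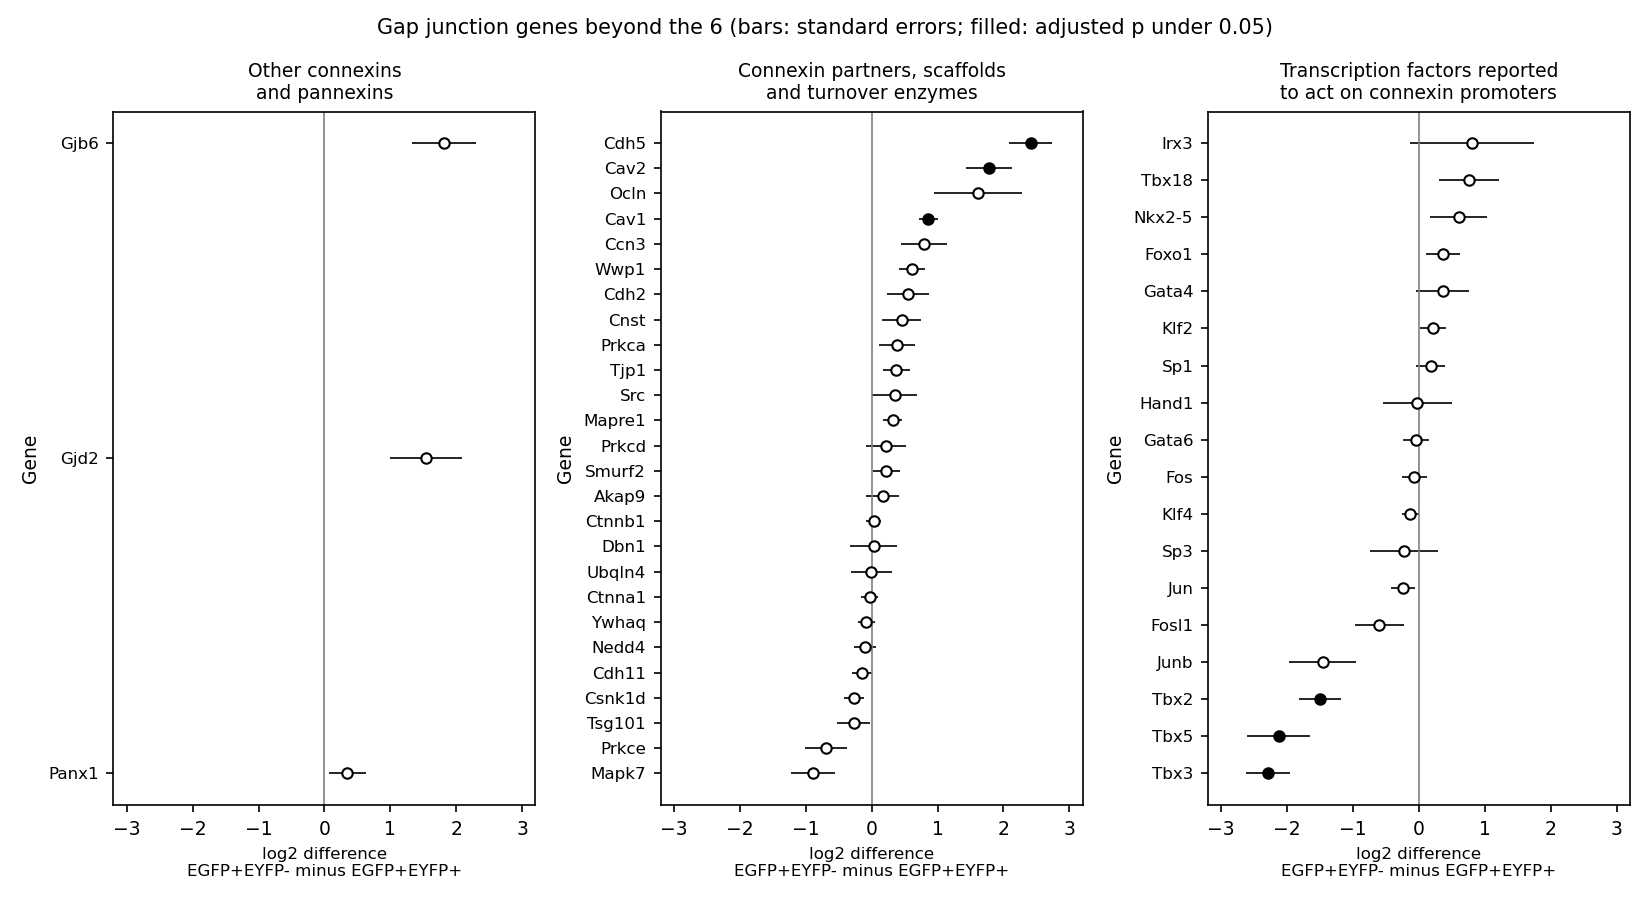
Difference in log2(signal + 25.042), EGFP+EYFP- minus EGFP+EYFP+, of the tested members of 3 gene lists, with standard errors (3 arrays a group). Filled points passed an adjusted p of 0.05 in limma, namely Cdh5, Cav2 and Cav1 above 0, and Tbx2, Tbx5 and Tbx3 below 0.

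Markers of further cell types were read as counts, beside calls for 4.38% of all genes tested upward and 1.98% downward. In EGFP+EYFP- arrays 13 of 13 leukocyte markers tested were higher, with summed log2 values over 14 genes of 159.9 to 170.007 in EGFP+EYFP- and 123 to 133 in EGFP+EYFP+ arrays. For Schwann cells and nerve 6 of 9 were higher and 3 did not pass, and of the 6, Foxd3 and Snap25 had EGFP+EYFP+ means below the filter. For pericytes and vascular smooth muscle 3 of 10 were higher, 1 was lower and 6 did not pass. For interstitial cells 1 of 7 was higher, 3 were lower and 3 did not pass, with sums of 80.7 to 84.5 in EGFP+EYFP- and 86.9 to 89.4 in EGFP+EYFP+ arrays. For fibroblasts 0 of 9 were called in either direction in limma, with 2 at an unadjusted p under 0.05, and for mesothelium 3 of 5 were higher and 2 did not pass. The mesothelial 3 were the keratins Krt8, Krt18 and Krt19, which the urothelial list also holds, while Upk3b (-0.12) and Wt1 (-0.22) did not pass and Msln and Lrrn4 were below the filter. Their part in the connexin values was not tested.

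The genes most like each tested connexin across the 6 arrays were taken by Pearson's r of log2 values, as a description, since many genes reach a high r over so few arrays that share 2 groups. For Gja1 they were Nmi (r = 0.997), Gdpd2 (0.981) and C8g (0.973), none of which differed between the groups past the threshold. For Gjc1 they were Ankrd10 (r = 0.996), Fyttd1 (0.988) and Trpc1 (0.986), again with none past the threshold. For Gja4 they were Tnfrsf11a (r = 0.992), Mrps6 (0.989) and Mreg (0.988), and these had differences of 2.59, 1.37 and 2.18 with limma adjusted p of 0.0119, 0.00844 and 0.0166. For Gjb5 they were Ift20 (r = 0.996), Gars (0.991) and Krtap10-4 (0.988), with differences of -0.49, -0.26 and -0.44 that did not pass.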

How the data were processed

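Per the labels' protocols, RNA was purified on RNeasy columns, underwent 2 rounds of amplification and was hybridised to Affymetrix MOE430 arrays. Amplification starts from the 3' end, so probe sets far from it can lose signal. The deposited signal intensity is linear. Per the submitters' processing notes GCOS was used, with no algorithm or scaling named. The 2% trimmed mean was 1500.01 on every array, so arrays had been scaled to a common level. Tests used log2(signal + 25.042), with the 20th percentile of all values as offset. Each gene was represented by its brightest probe set and kept when its mean exceeded the 40th percentile of probe set means. Groups, taken from titles, were tested in R 4.3.3 by limma 3.58.1 (variance trend, two-sided, Benjamini-Hochberg over 13464 genes, or over 26416 probe sets), and the procedure was tested on simulated data. A probe set with several symbols was not used. Tests outside limma are exact permutations. Promoter windows are RefSeq's for 5 of the 6 genes.

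The members, lists and tests were chosen with earlier results of these data known. Named were all members, and of each wider list those past the threshold and the 3 of smallest p, the 3 genes most like each tested connexin, Actg2, Acta2 and the 3 brightest of each marker list, printed here for endothelium and urothelium. Tbx18, Junb, Jun, Fos, Tjp1, Krt15, Sox17, Foxd3, Snap25 and the mesothelial genes were added after their values were seen. At most 13 probe sets had equal values on any pair of arrays. Replicate numbers were not taken as pairs.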

Additional observations from a re-analysis of the deposited data

How the results depend on the processing

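The alternatives covered scaling, offset, filter, variance trend, array weights, the replicate block, other choices of probe set and leaving out each array. Gja1, Gja4 and Gjc1 did not pass under any of them, and Gja5 and Gjb2 did not where a filter let them be tested. In the fit over genes Gjb5 passed with quantile normalization (-1.78), median centring (-1.73) and the filter at the 60th percentile (-1.68). It also passed there with array weights (-1.58) and the replicate number as a block (-1.68, limma adjusted p = 0.0193). Leaving out 1 array each gave -2.01 to -1.19 for Gjb5, passing without EGFP+EYFP+ array 3. The block raised the genes called to 1014 and changed no other call of a connexin gene. Same-numbered arrays correlated in their deviations from the group means by 0.19, 0.05 and 0.02, the first being the highest of any pair across the groups. EGFP+EYFP- array 3 correlated best with EGFP+EYFP+ array 2 (0.09). With so few arrays these values cannot settle whether same-numbered arrays were paired. Genes called numbered 857, with 590 higher and 267 lower in EGFP+EYFP-, and 1345, 910 and 435 with array weights. Leaving out 1 array each gave 466 to 1084 in all, 303 to 736 higher and 160 to 348 lower. In the other connexins and pannexins 1 passed with no variance trend and 1 averaged over probe sets, and 0 to 1 when leaving out 1 array each. Of the transcription factors 1 passed averaged over probe sets, and 1 to 4 when leaving out 1 array each. Gja4 fell below the filter at the 60th percentile, and Gjb6, Gjd2 and Tbx5 under some alternatives, which then gave no value. The causes were not tested. Gja5 and Gjb2 are limited by signal near background.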
